A study of Mus musculus with 8 samples.

Results

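Transcripts of 9 complement genes, C1qa, C1qb, C1qc, C4b, C3, Cfb, C3ar1, C5ar1 and Serping1, were followed in mouse skin. They were picked by symbol from a table of counts for 22740 protein-coding genes. RNA sequencing libraries, each from the dorsal skin of a single animal, came from 8 female BALB/c mice in 4 groups of 2 (the design text of the series speaks of 16 samples, and only 8 were analysed here). All mice were weaned onto a diet low in fibre. Baseline CTL mice (replicates 1 and 2) had plain drinking water and no allergen, and baseline butyrate mice (replicates 1 and 3) drank 400 mM sodium butyrate and also had no allergen. Lesional CTL mice (replicates 4 and 5) had plain water and 4 epicutaneous doses of 15 µg house dust mite extract (HDM) in 2 weeks, applied under an occlusive patch to shaved back skin. Lesional butyrate mice (replicates 3 and 4) had the same HDM exposure and butyrate from 2 weeks before it onwards. HDM exposure began at 6 to 8 weeks of age, and the same age range is taken for the baseline mice. For baseline butyrate mice the study states the same treatment without allergen, listed here as 2 weeks, and their skin was collected when it ended. Baseline and lesional mice carry different leading numbers in their labels, so the allergen and the set of mice cannot be told apart. The patch, the age at collection and the length of butyrate treatment may also differ between baseline and lesional mice. These cannot be told apart from the allergen either.

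Complement is a cascade of plasma and tissue proteins that tags microbes, immune complexes and dying cells. In the classical pathway the C1q molecule, built from the chains encoded by C1qa, C1qb and C1qc, binds its target and activates the proteases C1r and C1s, which cleave C4 and C2; the alternative pathway instead uses factor B, factor D and properdin. Both converge on cleavage of C3, and the small fragments C3a and C5a act on the receptors encoded by C3ar1 and C5ar1. Serping1 encodes C1 inhibitor, which blocks C1r and C1s. In tissue the C1q chains are known mainly as products of macrophages, and C3, C4 and C1 inhibitor can also be made by fibroblasts and epithelial cells.

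All 9 genes were found on the minus strand of the GRCm38 genome (GENCODE vM21 annotation). C1qa (chr4:136895917-136898803), C1qb (chr4:136880129-136886187) and C1qc (chr4:136889804-136893065) lie side by side within 18.7 kb. C4b (chr17:34728380-34743882) and Cfb (chr17:34856374-34862518) lie within 134.1 kb of each other, and C3 (chr17:57203970-57228136) lies elsewhere on the same chromosome. C3ar1 is at chr6:122847138-122856161, C5ar1 at chr7:16246743-16259540 and Serping1 at chr2:84765387-84775444. These spans are whole genes, exons and introns together, and the counts are of reads in exons.

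For 5 of the 9 genes the sequence around the start site was taken from RefSeq (GRCm38.p6), and 3 of these are shown, because the C1q genes moved together and C3 was the most abundant member by count. Each run is the 250 bases before the RefSeq start, read on the gene's own strand. For C1qc this start lies inside the GENCODE span given above, so part of its run falls within that span. Capitals mark the letters GAGGAA (a PU.1-type box, on either strand, read TTCCTC on the other) in the C1q genes and TTNNGNAA (a C/EBP-type box) in C3.
C1qb (chr4:136886201-136886450): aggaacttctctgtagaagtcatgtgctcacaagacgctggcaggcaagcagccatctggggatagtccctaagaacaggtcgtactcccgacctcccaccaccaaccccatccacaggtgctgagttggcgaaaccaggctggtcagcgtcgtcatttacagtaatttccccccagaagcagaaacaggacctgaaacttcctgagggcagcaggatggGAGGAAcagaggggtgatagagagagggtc
C1qc (chr4:136892915-136893164): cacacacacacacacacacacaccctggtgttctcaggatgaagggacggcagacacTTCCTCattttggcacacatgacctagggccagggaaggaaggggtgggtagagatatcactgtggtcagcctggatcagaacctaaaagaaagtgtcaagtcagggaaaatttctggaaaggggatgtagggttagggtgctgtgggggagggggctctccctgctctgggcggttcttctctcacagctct
C3 (chr17:57228137-57228386): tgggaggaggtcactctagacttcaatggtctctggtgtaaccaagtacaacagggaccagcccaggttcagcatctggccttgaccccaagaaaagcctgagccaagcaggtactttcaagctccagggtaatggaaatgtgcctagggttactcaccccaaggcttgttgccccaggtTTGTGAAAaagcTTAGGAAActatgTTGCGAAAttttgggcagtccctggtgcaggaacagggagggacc
C1qb held GAGGAA once, 30 to 25 bases before the start, and C1qc held it once on the other strand, 193 to 188 bases before. GAGGAA was present in 23.1% of 27025 windows of the same length. C3 held TTNNGNAA at 3 places between 70 and 38 bases before the start, while 36.9% of windows held it at least once. TGANTCA (AP-1) was seen in C3ar1 among the 5 windows and in 6.87% of all windows, TATAAA likewise in C3ar1 and in 13% of all windows, and the NF-kB motif in C1qc and in 3.75% of all windows. TTNNGNAA was also seen in C1qc and C5ar1, and TTCNNNGAA (STAT), held by 7.18% of all windows, in none of the 5. Both strands were searched for every motif, and no 2 matches of different motifs overlapped in the 3 sequences shown. A match is a description of letters and was not tested as a binding site.

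Library totals lay between 18004136 and 21085544 counts, so counting error was small for the members other than Cfb. One library stood apart. In baseline butyrate replicate 3, keratins of the hair shaft and root sheath (Krt71, Krt25, Krt27, Krt33a, Krt35 and Krt86, chosen after the values were seen) summed to 10600 CPM (counts scaled to a common library total), against 1.07 to 3.97 CPM in the other 7 libraries. Fitted results of the members and the values that rest on it are given with and without it where they differ. Values are CPM on TMM-scaled library totals unless stated otherwise. Differences are log2 fold-changes from edgeR's quasi-likelihood test on all 8 mice, with p-values adjusted by the Benjamini-Hochberg method over 15163 tested genes. A gene was called at an FDR below 0.1 and a fold-change above 2. All 9 members passed the filter on low counts.

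The complement genes were expressed in all 8 libraries, and the 2 mice of a group differed by 1.08-fold to 5.36-fold. In each group 1 mouse was higher for 9 of 9 members: replicate 2 of baseline CTL, replicate 1 of baseline butyrate, replicate 5 of lesional CTL and replicate 4 of lesional butyrate. None of the 9 was called in any of 5 contrasts. C3 and C5ar1 had the largest differences, 2.49-fold higher each in lesional than in baseline CTL skin, and these were called in fits that left out one or the other baseline butyrate mouse but not in the fit of all 8 mice. In bulk skin, fewer cells of a type and less RNA per cell cannot be told apart.

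The recognition molecule C1q was well expressed. C1qa stood at 109 and 175 CPM in baseline CTL replicates 1 and 2, 206 and 42.8 in baseline butyrate replicates 1 and 3, 158 and 190 in lesional CTL replicates 4 and 5, and 88.2 and 149 in lesional butyrate replicates 3 and 4. C1qb followed in the same order of libraries with 93.1, 138, 159, 34.0, 120, 156, 62.6 and 119 CPM. C1qc gave 97.1, 154, 192, 36.4, 143, 172, 78.1 and 138 CPM. For all 3 chains baseline butyrate held both the highest and the lowest library, 4.82-fold, 4.68-fold and 5.27-fold apart for C1qa, C1qb and C1qc. Without replicate 3 the range over 7 libraries was 2.34-fold, 2.54-fold and 2.46-fold. Both lesional butyrate mice lay below both lesional CTL mice for the 3 chains, for C1qb only just (119 against 120 CPM). Of all tested genes 22.5% were likewise lower in both butyrate mice, and 22.4% were higher in both.

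The 3 chains kept an almost fixed proportion to one another. Per count of C1qa there were between 0.71 and 0.852 counts of C1qb (median 0.79) and between 0.85 and 0.93 counts of C1qc (median 0.895), a range of 1.2-fold and 1.09-fold over 8 libraries in which the level of C1qa itself moved 4.82-fold. Csf1r, the receptor for macrophage colony-stimulating factor, which marks macrophages and monocytes, followed them only in part. Counts of C1qa per count of Csf1r were 0.994 and 1.48 in baseline CTL replicates 1 and 2. In lesional CTL replicates 4 and 5 they were 0.995 and 1.24. Over the 8 libraries the ratio lay between 0.896 and 1.48, a range of 1.65-fold, with the highest ratios in baseline CTL replicate 2 and baseline butyrate replicate 1.

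C4b, whose product is cleaved by C1s to continue the classical pathway, was steady between groups. It stood at 128 and 186 CPM in baseline CTL, 233 and 90.0 in baseline butyrate, 138 and 206 in lesional CTL, and 110 and 158 in lesional butyrate (same order of replicates as above). All 4 groups overlapped one another. A near-identical gene, C4a, encodes a close relative of C4b and was not analysed here, so reads that fit both could have been lost from or added to C4b.

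C3, the protein on which the pathways converge, was the most abundant member by count. Its level was 183 and 300 CPM in baseline CTL, 382 and 120 in baseline butyrate, 448 and 757 in lesional CTL, and 283 and 626 in lesional butyrate. Both lesional CTL mice lay above both baseline CTL mice, as did 36.7% of all tested genes, while 38.5% lay below. They also lay above both baseline butyrate mice, which was not counted over all genes. Lesional butyrate replicate 3 lay among the baseline mice. Relative to C4b and Serping1, C3 was higher in the lesional libraries. There were 1.42, 1.62, 1.64 and 1.34 counts of C3 per count of C4b in the baseline libraries and 3.24, 3.68, 2.57 and 3.95 in the lesional ones, and the 2 sets did not overlap. C3 per Serping1 likewise was 0.954, 1.3, 1.47 and 0.956 in the baseline libraries and 1.94, 2.55, 1.67 and 2 in the lesional ones, again without overlap. Per count of C1qa, the highest baseline ratio of C3 was 2.81 and the lowest lesional one 2.84. Per count of Csf1r, the macrophage marker, the groups overlapped, with 2.93 in replicate 3 of baseline butyrate and 2.83 in the lowest lesional library. These ratios were computed after the values were seen and are descriptions. The share of all genes whose ratios to C4b or Serping1 separate likewise was not counted.

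**Figure D1:**
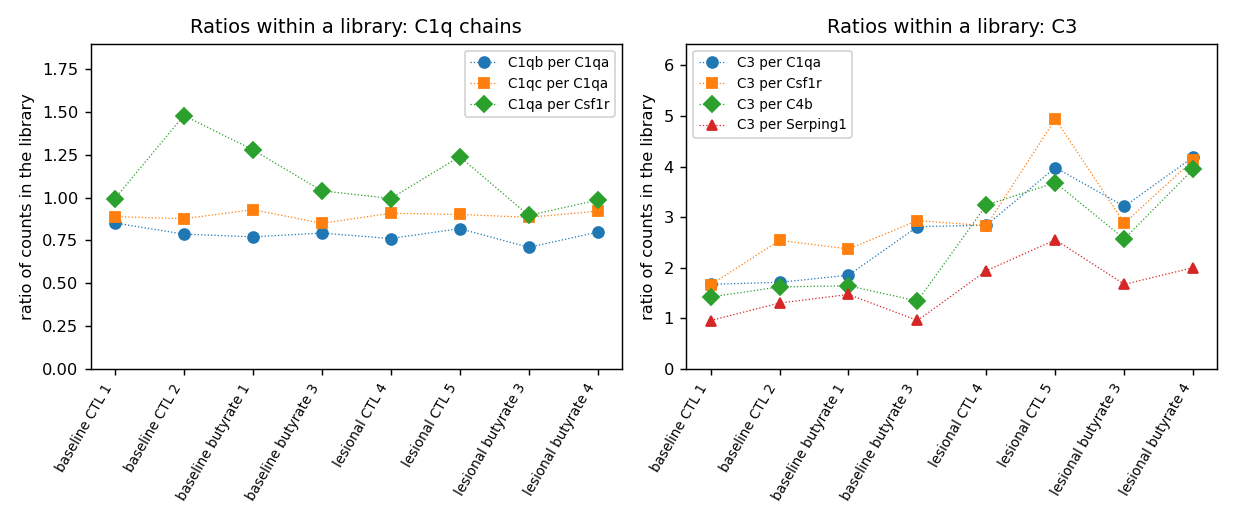
Ratios of counts within each of the 8 libraries, on linear axes from 0, with 1 point per library. On the left C1qb and C1qc per C1qa stay between 0.71 and 0.93 and C1qa per Csf1r between 0.896 and 1.48; on the right C3 per C4b lies at 1.34 to 1.64 in the 4 baseline libraries and at 2.57 to 3.95 in the 4 lesional ones. Dotted lines join the points of a ratio and carry no order.

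Cfb, which encodes factor B of the alternative pathway, had low counts in all 8 libraries. Its counts were 18 and 29 in baseline CTL, 33 and 10 in baseline butyrate, 14 and 31 in lesional CTL, and 4 and 22 in lesional butyrate, that is 0.191 to 1.86 CPM. All groups overlapped, and the largest ratio between the mice of a group (5.36-fold, in lesional butyrate) rests on those 4 and 22 counts. Of the 2825 exon bases of Cfb, 79.5% also belong on the same strand to the read-through gene Gm20547. All 3902 exon bases of Gm20547 are shared with C2 and Cfb, and it is listed at 0 in all 8 libraries. Reads on the shared bases were thus not counted for Gm20547. By default featureCounts leaves out reads that fall in more than 1 gene. With that default the counts of Cfb rest on the 579 bases it does not share, and its level is too low. Comparisons of Cfb with other genes are uncertain.

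C3ar1, which encodes the C3a receptor, stood at 16 and 21.5 CPM in baseline CTL, 33.9 and 11.2 in baseline butyrate, 31.4 and 33.9 in lesional CTL, and 15.6 and 32.9 in lesional butyrate. C5ar1, which encodes the main C5a receptor of myeloid cells, stood at 9.28 and 9.99 CPM in baseline CTL, 13.9 and 4.57 in baseline butyrate, 18.3 and 29.7 in lesional CTL, and 8.11 and 16.4 in lesional butyrate. Lesional CTL was above baseline CTL in both mice for both receptors, as it was for 36.7% of all tested genes, while 38.5% lay below. For C5ar1 both lesional CTL mice were the highest of all 8, a pattern not counted over all genes. Counts of C5ar1 per count of Csf1r ranged from 0.0824 to 0.194.

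Serping1, the C1 inhibitor gene, varied least among the members, by 2.48-fold between its lowest and highest library (1.84-fold without baseline butyrate replicate 3). It stood at 192 and 232 CPM in baseline CTL, 259 and 126 in baseline butyrate, 231 and 296 in lesional CTL, and 170 and 313 in lesional butyrate. All 4 groups overlapped one another, baseline and lesional CTL only just (232 against 231 CPM).

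**Figure D2:**
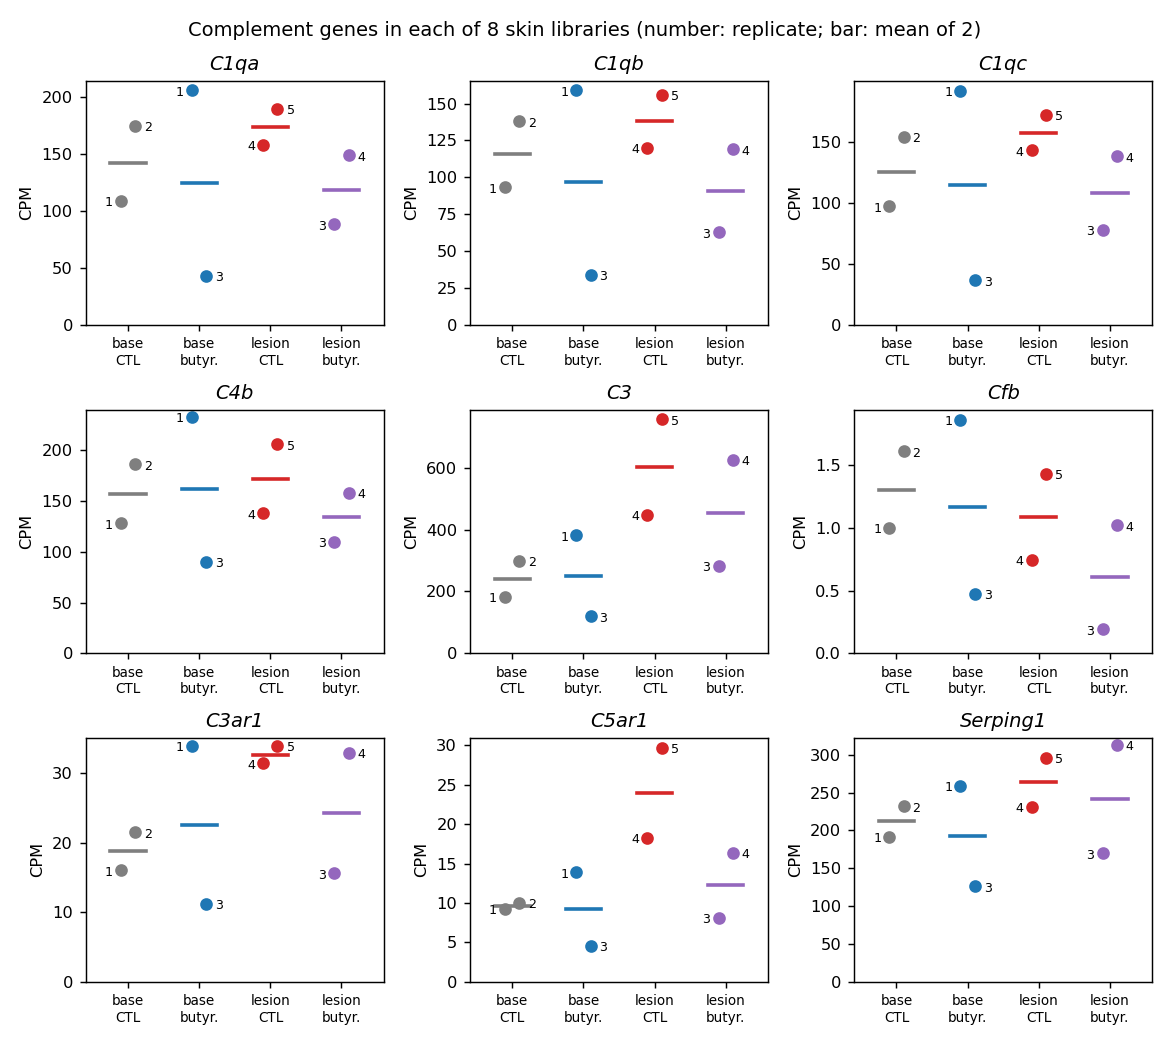
CPM of each member (y axes, linear, from 0, scaled separately) in the 8 libraries by group on the x axis. Points are mice with their replicate numbers and bars are means of 2 mice. Within every group the same mouse is the higher one in all 9 panels, and baseline butyrate replicate 3 is the lowest library for all members but Cfb.

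Levels of different genes were compared per kilobase of exon. In baseline CTL skin the order by mean ± SD over 2 mice was C1qa (137 ± 44.9 CPM per kilobase), C1qb (106 ± 29.1), Serping1 (91.1 ± 12.2), C1qc (64.9 ± 20.7), C3 (47.0 ± 16.2), C4b (27.6 ± 7.1), C3ar1 (4.35 ± 0.899), C5ar1 (3.75 ± 0.195) and Cfb (0.462 ± 0.153, or 2.25 ± 0.744 on the 579 bases it does not share). Neighbours in this order overlapped between mice except Serping1 and C1qc, C3 and C4b, C4b and C3ar1, and C5ar1 and Cfb. Such overlaps compare ranges over mice and do not pair genes within a library, and all members shared the higher mouse. In lesional CTL skin C1qa (167 ± 22.2) and C1qb (127 ± 23.3) were followed by C3 (117 ± 42.4), Serping1 (113 ± 19.9), C1qc (81.5 ± 10.4), C4b (30.2 ± 8.35), C5ar1 (9.34 ± 3.13), C3ar1 (7.59 ± 0.4) and Cfb (0.385 ± 0.171). C3 stood above Serping1 and C1qc there, and C5ar1 above C3ar1, but C3 overlapped C1qb, Serping1 and C1qc, and C5ar1 overlapped C3ar1. C1qa did not overlap C1qb, nor Serping1 C1qc.

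The order of the mice within a group was the main pattern of these genes. The size of the gap was a median of 0.53 on the log2 scale over the members in baseline CTL, against 0.14 over all tested genes. In baseline butyrate the medians were 1.55 and 0.50, in lesional CTL 0.38 and 0.12, and in lesional butyrate 0.92 and 0.21. Over all 15163 tested genes, 14.3% had this order in all 4 groups, and between 47.4% and 51.2% had it in each group taken singly. The order was read off the members, so their count of 9 of 9 is a description. In the 3 groups other than baseline butyrate the order was shared by 18.9% of all genes. Genes of other lists shared it in part: 9 of 15 macrophage markers, 6 of 10 fibroblast markers, 7 of 8 skeletal muscle markers and 6 of 10 other genes of the classical and lectin pathways had it in all 4 groups, but 0 of 10 keratinocyte, 0 of 8 T cell and 0 of 8 mast cell markers did.

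**Figure D3:**
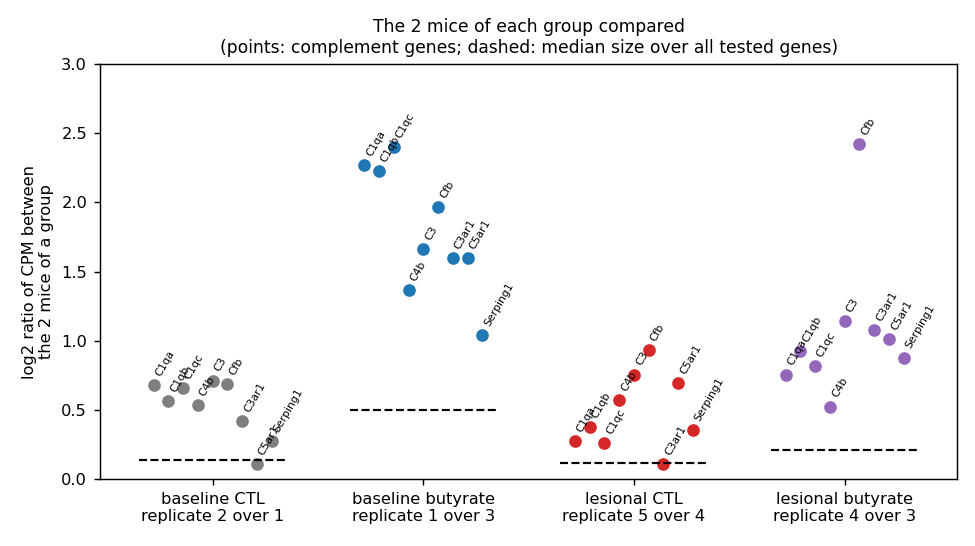
Log2 ratio of CPM between the higher and the lower mouse of each group (y axis, 0 for no difference), with 1 point per member and the groups and replicates on the x axis. Dashed lines are the median size over all tested genes (0.14, 0.50, 0.12 and 0.21), and all but C5ar1 in baseline CTL and C3ar1 in lesional CTL lie above them.

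The marker levels of the same mice are given beside this pattern, and their part in it was not tested. The 15 macrophage markers summed to 3560 to 3640 CPM in baseline CTL, 3780 to 5900 in baseline butyrate, 3860 to 4360 in lesional CTL and 3820 to 4220 in lesional butyrate, with no marker at 0 in all libraries. Most of that sum was Apoe, which many other cells also express. With Apoe included, the mouse with more complement RNA had the higher sum in the lesional groups only. The sums were 3640 and 3560 CPM in baseline CTL replicates 1 and 2, and 3780 and 5900 in baseline butyrate replicates 1 and 3. Without Apoe the other 14 summed to 812.8 and 1059 CPM in baseline CTL, 1389 and 465.7 in baseline butyrate, 1581 and 1800 in lesional CTL, and 838.9 and 1470 in lesional butyrate. By this sum of 14, the mouse with more macrophage marker RNA was also the one with more complement RNA in every group. The 10 fibroblast markers summed to 8330 and 9980 CPM in baseline CTL, 11200 and 4960 in baseline butyrate, 7750 and 9080 in lesional CTL, and 5200 and 10800 in lesional butyrate, in the same order. The 8 skeletal muscle markers had that order too, from 9870 CPM in baseline butyrate replicate 3 to 47400 in baseline CTL replicate 2. The hepatocyte markers summed to 1.49 to 7.83 CPM in the 8 libraries, with 1 of 8 at 0 throughout.

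Genes whose log2 CPM ran most like the members across the 8 libraries were looked up among 14310 genes with a mean of at least 1 CPM, as a description. The mean of the C1q chains was followed most closely by Fcgrt (Pearson r = 0.989), Unc93b1 (0.988), Evi2a (0.986), March1 (0.985) and Stard8 (0.984). C3 was followed by Gfra2 (0.994), C1s (0.984), Cd302 (0.98), C1rb (0.979) and Cd209d (0.979), of which C1s and C1rb encode the classical pathway proteases or a near-identical copy. Serping1 was followed by Pi16 (0.988), Srpx2 (0.987), Lama4 (0.985), Col6a1 (0.984) and Loxl1 (0.98), which include genes of the extracellular matrix such as Lama4 and Col6a1. Cfb was followed by Mmp23 (0.99), Gamt (0.984), Ms4a8a (0.975), Ogn (0.97) and Steap3 (0.97), at the low counts given above. Without baseline butyrate replicate 3, the r of these 20 pairs over 7 libraries lay between 0.951 and 0.992.

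HDM exposure was examined first in CTL mice. C3 was 1.32 higher on the log2 scale in lesional than in baseline CTL skin (95% confidence interval -0.27 to 2.91, FDR = 0.318), C5ar1 was also 1.32 higher (-0.10 to 2.73, FDR = 0.277), and C3ar1 was 0.80 higher (-0.56 to 2.17, FDR = 0.451). For these 3 genes both lesional mice lay above both baseline mice, as did 36.7% of all tested genes, while 38.5% lay below. The other 6 members had values from -0.25 (Cfb) to 0.33 (C1qc), and their groups overlapped. The members' median was 0.32, against -0.015 over all genes. None of the 9 was called with edgeR, beside 3.58% of all genes (360 higher and 183 lower). DESeq2 called 1093 genes and limma-voom 578, with 0 members in each. At an unadjusted p below 0.05 in edgeR there were 2983 genes and 0 members.

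C3 and C5ar1 were not called in any fit that held both baseline butyrate mice, including those that left out 1 mouse of another group. They were called when either baseline butyrate mouse, or all butyrate mice, were left out. In an edgeR fit without baseline butyrate replicate 3, both were called at the same size (FDR = 0.0808 for C3 and 0.0478 for C5ar1), when 6.33% of all genes were called higher. Without replicate 1 of that group they were called as well (FDR = 0.0806 and 0.0484), beside 6.31% of genes called higher. With only the 4 CTL mice in the fit, the FDR was 0.0344 for C3 and 0.0119 for C5ar1, beside 6.49% called higher, and C3ar1 reached an FDR of 0.0113 at a fold-change under 2. A fit by limma-voom without replicate 3, chosen after seeing the data, called them too (FDR = 0.0712 and 0.0518). Markers of other cells rose in the same comparison: 8 of 9 tested neutrophil markers were called higher, from a sum of 27.9 to 28 CPM in baseline CTL to 1760 to 2830 CPM in lesional CTL, and 2 of 15 macrophage, 4 of 8 mast cell, 3 of 8 T cell, 1 of 11 Langerhans and dendritic cell and 0 of 10 fibroblast markers were called higher. Of 13 acute phase and NF-kB or STAT3 response genes 8 were called higher. Their part in the C3 and C5ar1 values was not tested.

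In butyrate-treated mice no member separated lesional from baseline skin. C3 was 0.86 higher in lesional skin (-0.72 to 2.43, FDR = 0.632), C5ar1 0.41 higher and Cfb -0.92, and the C1q chains were between -0.08 and -0.07. Groups overlapped for all 9, against 15.7% of genes fully higher and 16.9% fully lower. None was called with edgeR, beside 0.35% of all genes. DESeq2 called 698 genes and limma-voom 42, with 0 members in each. At an unadjusted p below 0.05 in edgeR there were 1993 genes and 0 members. With replicate 3 as the only baseline butyrate mouse, 5 members (C1qa, C1qb, C1qc, C3 and C5ar1) were called higher in lesional skin, beside 11.1% of genes, but with replicate 1 as the only one C3 was 0.25 higher and C5ar1 -0.18, and none was called.

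Butyrate was compared with CTL in lesional skin, the comparison the study centred on. All 9 members had negative log2 fold-changes, from -0.97 for C5ar1 (-2.37 to 0.43) through -0.84 for Cfb and -0.60 for C1qb (-2.28 to 1.08) to -0.13 for Serping1 (-1.14 to 0.89). C1qa and C1qc were both at -0.55, C3 at -0.41, C3ar1 at -0.43 and C4b at -0.36. Without lesional butyrate replicate 3 the values of C3 (0.05), C3ar1 (0.01) and Serping1 (0.25) turned positive. C1qa, C1qb, C1qc and C5ar1 were lower in both butyrate mice than in both CTL mice, as were 22.5% of all tested genes, while 22.4% were higher in both. The members' median was -0.55 and that of all genes -0.005. The FDR was 1 for all 9, and none was called or had an unadjusted p below 0.05, beside 0% of all genes called by edgeR (734 at an unadjusted p below 0.05, 124 called by DESeq2 and 1 by limma-voom, with 0 members in each). The intervals left room for a fall of more than 2-fold in every member and for a rise of up to 1.39 on the log2 scale. The 14 macrophage markers other than Apoe summed to 838.9 and 1470 CPM with butyrate and 1581 and 1800 without it. With Apoe, which the list as fixed included, the groups overlapped, at 3820 and 4220 CPM against 3860 and 4360. Of the 15 macrophage markers 13 had negative values (median -0.56). Neutrophil markers were negative in 9 of 9 (median -2.11; summed 373 to 800 CPM with butyrate and 1760 to 2830 without), T cell markers in 8 of 8 (median -0.38), mast cell markers in 7 of 8 (median -0.30), and acute phase and NF-kB or STAT3 response genes in 12 of 13 (median -1.0), with 0 called in each list. Fibroblast markers were negative in 4 of 10 (median 0.09). The part of these cells and genes in the members' values was not tested.

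In baseline skin the butyrate values of the members lay between -0.26 for C1qb and 0.27 for C3ar1, with an FDR of 0.847 to 0.975, and all groups overlapped (13.8% of genes were fully higher and 15.9% fully lower). The median was -0.14, against 0.001 over all genes. No gene was called by edgeR (0%, with 529 at an unadjusted p below 0.05 and 0 members among them) or by limma-voom, and DESeq2 called 58 genes and 0 members. These means joined 2 very unlike libraries. With replicate 3 as the only butyrate mouse C1qa, C1qb and C1qc were called lower (log2 fold-changes -1.74, -1.77 and -1.79, FDR = 0.0212, 0.0256 and 0.021), beside 14.7% of genes, and with replicate 1 as the only one they were 0.54, 0.46 and 0.61 and not called.

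The difference between the butyrate effects in lesional and baseline skin was tested as an interaction. It was negative for 8 of 9 members, from -0.90 for C5ar1 (-2.89 to 1.08) to -0.34 for C1qb, and 0.01 for Serping1 (-1.43 to 1.45). The sign changed with the baseline butyrate mouse left out. Without replicate 3 all 9 were negative, from -1.50 for C5ar1 to -0.42 for Serping1. Without replicate 1 all 9 were positive, from 0.11 for C5ar1 to 1.24 for C1qc. None was called with all 8 mice (FDR 0.84 to 0.997; 0 at an unadjusted p below 0.05), beside 0% of all genes with edgeR or limma-voom and 37 genes with DESeq2. The comparisons share their control mice, so the similar values of one member in several of them are not independent.

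**Figure D4:**
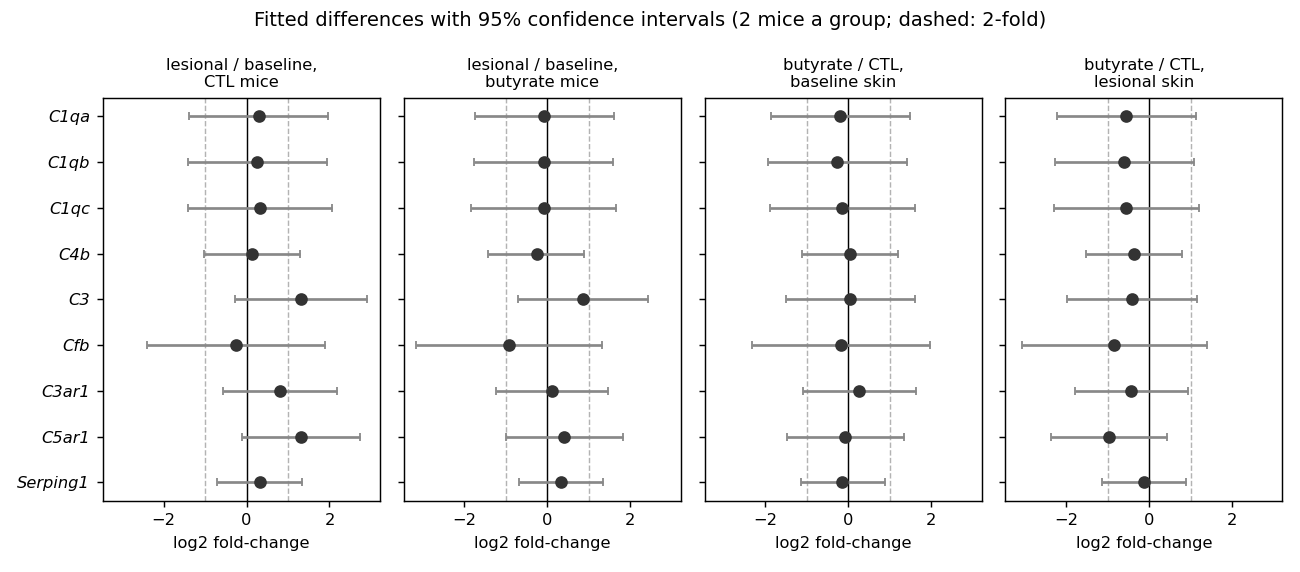
Fitted log2 fold-changes (points) of the 9 members with 95% confidence intervals (bars) in 4 comparisons of 2 mice against 2, with dashed lines at a 2-fold change. Every interval includes 0, and the largest differences are those of C3 and C5ar1 at 1.32 in lesional against baseline CTL skin.

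The rest of the cascade was followed in 51 further complement genes and regulators, of which 50 were listed and 36 tested. In lesional against baseline CTL skin 2 were called and both were higher, 23 of 36 had positive values, and the median was 0.27. These 2 make up 5.56% of the list, beside 3.58% of all genes called. Without baseline butyrate replicate 3 the same 2 and C5ar2 were called higher, 8.33% of the list beside 12.5% of all genes. The 2 were Hc, which encodes C5, and Cpn1, a subunit of carboxypeptidase N, which inactivates C3a and C5a; both are under a mean of 1 CPM and were named after their values were seen. Hc had 0 and 2 counts in baseline CTL and 33 and 32 in lesional CTL, at least 9.7-fold higher against a floor of 3 counts per library (FDR = 0.0882). Cpn1 had 0 and 2 counts in baseline CTL and 27 and 35 in lesional CTL, at least 9.15-fold higher (FDR = 0.0587). In lesional butyrate skin Hc had 12 and 10 counts and Cpn1 had 3 and 5, and neither difference from lesional CTL was called with all 8 mice; that of Cpn1 was called without baseline butyrate replicate 3 (FDR = 0.0892) or replicate 1 (FDR = 0.0923).

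By pathway step, the 10 tested genes of the classical and lectin pathways had 0 called in any contrast with all 8 mice and a median of 0.52 in lesional against baseline CTL skin. C1s1, which encodes the C1s protease, stood at 68.9 and 86.4 CPM in baseline CTL and 135 and 157 in lesional CTL (log2 fold-change 0.91, FDR = 0.321), with a near-identical copy, C1s2, that could share its reads. C2, the classical partner of factor B, stood at 8 and 11.5 CPM in baseline CTL and 7.79 and 6.32 in lesional CTL, with 42.8% of its exon bases shared with Gm20547. Of the alternative pathway, Cfd, encoding factor D, was abundant at 353 to 818 CPM. It stood at 360 and 594 CPM in lesional CTL and higher, at 818 and 771, in lesional butyrate, and was not called. Of all tested genes 22.4% were likewise higher in both lesional butyrate mice. Cfp, encoding properdin, went the other way, with 60.5 and 78.8 CPM in lesional CTL and 25.4 and 44.2 in lesional butyrate (log2 fold-change -1.0, FDR = 1). Of 7 terminal pathway genes 5 were tested, and their sum never passed 16.4 CPM in any library.

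Among the regulators, Clu, encoding clusterin, was at 78.1 to 104 CPM in 7 libraries and at 488 in baseline butyrate replicate 3, and Susd4 behaved likewise with 10 to 17 counts in 7 libraries and 129 in that one. Of the 8 tested membrane regulators, which protect host cells from complement, 7 had negative values in lesional against baseline CTL skin (median -0.43) and 0 were called.

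Of the 7 other receptors tested, all 7 had positive values in lesional against baseline CTL skin (median 0.59) and 0 were called. C5ar2, the second C5a receptor, stood at 0.778 and 0.611 CPM in baseline CTL, 0.451 and 0.143 in baseline butyrate, 1.81 and 3.28 in lesional CTL, and 0.668 and 0.744 in lesional butyrate. It was 1.87 higher in lesional than in baseline CTL skin (0.57 to 3.17, FDR = 0.146) and -1.84 with butyrate in lesional skin (-3.13 to -0.56, FDR = 0.838), so both intervals left out 0 but neither passed the threshold. Itgam, a chain of complement receptor 3, was at 50.4 and 81.5 CPM in lesional CTL and 19.4 and 44.7 in lesional butyrate (log2 fold-change -1.04, FDR = 1). In each of the 4 other contrasts 0 of the 36 genes were called with all 8 mice, and the lowest FDR among them was 0.334. Without baseline butyrate replicate 1, when that group is the library that stood apart alone, 37 of these genes were tested. Then 32.4% were called in butyrate against CTL baseline skin (24.1% of all genes), 43.2% in lesional against baseline butyrate skin (19.1% of all) and 21.6% in the difference of the butyrate effects (20.9% of all).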

How the data were processed

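Reads of skin RNA (TruSeq RNA libraries) were aligned by the authors with STAR 2.5.2 to GRCm38 through RNASik, and the deposited values are raw counts per protein-coding gene from featureCounts, on the reverse strand and without normalization. Everything else was computed here. Groups came from the sample labels, which call butyrate SCFA, CTL vehicle and lesional skin atopic dermatitis. Nothing says that a mouse was sampled more than once, and p-values measure the spread between mice of 1 experiment.

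The main test was edgeR 4.0.16 (R 4.3.3; robust quasi-likelihood, TMM, filterByExpr with a minimum count of 10) on all 8 mice. The study used limma-voom, which is an alternative here (limma 3.58.1), as is DESeq2 1.42.0. Other scalings, filters and thresholds were also tried, as were models restricted to the mice of a contrast or lacking 1 mouse. The edgeR test was run on simulated counts. No replicate block was used: the groups compared share at most 1 number.

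The 9 members and all gene lists were chosen with earlier results of these data known. All members are described. Other complement genes are named if at a mean of 1 CPM or more and called, a partner of a member, or among the 3 largest changes of a contrast; 2 genes of the lists are not reported here by name. For likeness, Pearson r of log2(CPM + 0.5) was used. Exons, coordinates and shared bases came from GENCODE vM21, promoter sequences from RefSeq. Proteins and the starts of C1qa, C4b, Cfb and Serping1 were not used here. Intervals are at 95% and cover these mice only, and floors cover counting error only.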

Additional observations from a re-analysis of the deposited data

How the results depend on the processing

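Every member's interval was wide with 2 mice a group, and 0 of 9 were called under each alternative, except as follows. In lesional against baseline CTL skin 2 were called with only the mice compared and 2 by limma-voom without baseline butyrate replicate 3 (an alternative chosen after seeing the data), and fits without 1 mouse called 0 to 2. Such fits called 0 to 3 for butyrate in baseline skin and 0 to 5 for lesional against baseline skin in butyrate-treated mice. In fits without 1 mouse the remaining mouse of the group is assumed to vary like the others. No paired analysis was possible because the groups compared share fewer than 2 replicate numbers. Cfb was left out by a minimum count of 50. Over all genes, calls in lesional against baseline CTL skin went from 543 to 1093 with DESeq2, 1918 with only the mice compared and 1911 without baseline butyrate replicate 3 (0 to 1936 over the fits without 1 mouse, 0 without either baseline CTL mouse) and 245 at an FDR below 0.05, and those for butyrate in lesional skin from 0 to 124, 25 and 187. The direction of many uncalled differences changed with the setting, and apart from fits with fewer mice the cause was not tested.

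With library totals only, lesional against baseline values in butyrate-treated mice were 0.02 for C1qa, 0 for C1qb and 0.01 for C1qc, and the difference of butyrate effects for Serping1 was -0.05. Limma-voom gave 0.29, 0.24 and 0.31 for the C1q chains there, and -0.11 for C3 and -0.08 for C4b for butyrate in baseline skin. Limma-voom without baseline butyrate replicate 3 gave, for butyrate in baseline skin, 0.58 (C1qa), 0.49 (C1qb), 0.65 (C1qc), 0.52 (C5ar1), 0.54 (Cfb) and 0.30 (Serping1). It gave -0.58 (C3ar1), -0.26 (C5ar1) and -0.17 (Serping1) for lesional against baseline skin with butyrate, and -0.48 for the difference of effects of Serping1.

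Fits without 1 mouse changed direction in these ranges. For butyrate in baseline skin they were -1.74 to 0.54 (C1qa), -1.77 to 0.46 (C1qb), -1.79 to 0.61 (C1qc), -1.01 to 0.66 (C3), -0.74 to 0.86 (C3ar1), -0.81 to 0.57 (C4b), -1.08 to 0.52 (C5ar1), -1.45 to 0.51 (Cfb) and -0.75 to 0.29 (Serping1). For butyrate in lesional skin they were -1.09 to 0.05 (C3), -1.06 to 0.01 (C3ar1) and -0.63 to 0.25 (Serping1), the upper ends without lesional butyrate replicate 3. For lesional against baseline CTL skin they were -0.01 to 0.67 (C1qa), -0.18 to 0.42 (C4b) and -0.80 to 0.13 (Cfb). For lesional against baseline skin with butyrate they were -0.80 to 1.48 (C1qa), -0.80 to 1.43 (C1qb), -0.83 to 1.57 (C1qc), -0.52 to 1.12 (C3ar1), -0.79 to 0.58 (C4b), -0.18 to 1.43 (C5ar1), -2.55 to 0.36 (Cfb) and -0.16 to 0.94 (Serping1). For the difference of effects they were -1.09 to 1.19 (C1qa), -1.06 to 1.17 (C1qb), -1.16 to 1.24 (C1qc), -1.14 to 0.60 (C3), -1.33 to 0.31 (C3ar1), -0.93 to 0.45 (C4b), -1.50 to 0.11 (C5ar1), -2.30 to 0.60 (Cfb) and -0.49 to 0.63 (Serping1).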
